A study of Mus musculus with 8 samples.

Results

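Myosin heavy chains are the motor subunits of the thick filament, and the 9 striated muscle genes that encode them (Myh3, Myh2, Myh1, Myh4, Myh8, Myh13, Myh6, Myh7 and Myh7b) were examined for called binding of myogenin and p300. The genes were taken from a fixed list, and every called interval with at least 1 bp within 50 kb of one of their gene bodies was assigned to them. They are 9 of the 22359 protein-coding genes in the GENCODE annotation of mm9, and 19 of the 43759 intervals in the 4 peak lists lay in their windows. Myogenin and p300 were measured by ChIP-seq in C2C12 myoblasts, an established mouse line of strain C3H that is grown in 10% serum and differentiated in 2% horse serum. Both groups were differentiated for 24 h, either without further agent (Ctl) or with 50 nM bexarotene (Bex), a selective agonist of the retinoid X receptors. Each factor had 1 library per condition, so a difference between Ctl and Bex could not be set against any replicate error and no test of treatment was made. The lists give the position of each interval without tag counts, scores or input values. The height of a peak and the depth behind a call or a missing call are therefore unknown from them.

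Each vertebrate muscle fiber type is defined by the heavy chain it expresses. Myh3 and Myh8 encode the embryonic and perinatal chains that mark developing and regenerating muscle. Myh2, Myh1 and Myh4 encode the adult fast chains IIa, IIx and IIb, and Myh13 encodes a chain known from extraocular muscle. Myh6 and Myh7 encode the cardiac alpha chain and the chain shared by the cardiac ventricle and slow fibers, while Myh7b encodes a divergent slow tonic chain. Myogenin, the bHLH factor of terminal myogenic differentiation, binds E-boxes with the general form CANNTG. p300 is a histone acetyltransferase recruited by many factors and is widely used to mark enhancers and promoters.

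The 9 genes lie at 3 loci. The embryonic, fast, perinatal and extraocular genes stand head to tail in the order Myh3, Myh2, Myh1, Myh4, Myh8 and Myh13 on the plus strand of chromosome 11, from 66891802 to 67185088 in mm9. Myh6 and Myh7 stand together on the minus strand of chromosome 14, and Myh7b stands alone on the plus strand of chromosome 2. The chromosome 11 cluster held 16 of the 19 intervals, with 4 in Myogenin Ctl, 7 in Myogenin Bex, 3 in p300 Ctl and 2 in p300 Bex. The cardiac pair had 1 interval in Myogenin Ctl and 1 in p300 Ctl, and both lay at the starts of neighboring genes. Myh7b had 1 interval, in Myogenin Bex. Bexarotene-only myogenin regions thus lay at the chromosome 11 cluster and at Myh7b, and the cardiac pair had none within 50 kb.

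Intervals at the gene starts were found at Myh3 and Myh1. Their sequences are shown because they are the promoter-proximal sites at which the heavy chain genes were called, with their muscle E-boxes in capitals. A muscle E-box here is CAGCTG or the site that reads CACCTG on one strand and CAGGTG on the other, and the letters are those of the plus strand of mm9. At Myh3 the interval shown is that of Myogenin Bex at chr11:66891105-66891357, and at Myh1 the intervals shown are those of Myogenin Ctl at chr11:67013085-67013303 and of p300 Ctl at chr11:67012946-67013158.
Myh3 start, Myogenin Bex: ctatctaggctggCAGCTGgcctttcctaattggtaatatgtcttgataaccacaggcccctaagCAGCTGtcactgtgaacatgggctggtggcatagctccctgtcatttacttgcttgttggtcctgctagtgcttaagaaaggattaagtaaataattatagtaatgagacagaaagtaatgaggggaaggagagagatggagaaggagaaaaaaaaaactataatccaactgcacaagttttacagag
Myh1 start, Myogenin Ctl: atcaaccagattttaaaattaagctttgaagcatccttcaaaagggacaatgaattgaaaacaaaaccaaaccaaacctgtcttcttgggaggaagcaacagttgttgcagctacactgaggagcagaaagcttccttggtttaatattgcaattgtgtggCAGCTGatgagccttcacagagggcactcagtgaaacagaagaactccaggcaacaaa
Myh1 start, p300 Ctl: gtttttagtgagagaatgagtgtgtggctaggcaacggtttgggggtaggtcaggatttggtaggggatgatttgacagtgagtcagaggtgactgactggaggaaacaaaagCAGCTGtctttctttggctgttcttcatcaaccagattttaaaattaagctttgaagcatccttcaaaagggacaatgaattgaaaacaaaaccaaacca

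Away from the gene starts, the interval past the end of Myh3 is shown because it was the one distal myogenin site in the 3 loci that overlapped p300, and the interval upstream of Myh7b because it was the sole call at that gene. The first lies at chr11:66919286-66919545 and the second at chr2:155432102-155432373, both from Myogenin Bex and with the same marking. The third sequence, from Myogenin Bex at chr11:67127283-67127509 between Myh8 and Myh13, was added after its position had been seen, as the nearest myogenin site to either gene.
Past the Myh3 end, Myogenin Bex: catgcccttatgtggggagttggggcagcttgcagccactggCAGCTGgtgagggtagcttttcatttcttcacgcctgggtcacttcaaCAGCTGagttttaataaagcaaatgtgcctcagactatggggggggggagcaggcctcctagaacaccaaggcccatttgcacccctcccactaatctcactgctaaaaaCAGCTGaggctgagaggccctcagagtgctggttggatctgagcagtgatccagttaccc
Upstream of Myh7b, Myogenin Bex: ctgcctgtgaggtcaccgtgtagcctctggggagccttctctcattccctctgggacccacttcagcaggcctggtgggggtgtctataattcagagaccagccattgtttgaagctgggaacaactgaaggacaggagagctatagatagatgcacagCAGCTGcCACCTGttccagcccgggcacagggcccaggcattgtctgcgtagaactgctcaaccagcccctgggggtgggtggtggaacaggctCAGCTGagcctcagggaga
Between Myh8 and Myh13, Myogenin Bex: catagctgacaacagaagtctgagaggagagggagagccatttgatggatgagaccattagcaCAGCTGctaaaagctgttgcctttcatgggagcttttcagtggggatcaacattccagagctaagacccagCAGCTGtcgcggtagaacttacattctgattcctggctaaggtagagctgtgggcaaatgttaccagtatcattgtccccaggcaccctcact

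The embryonic gene Myh3 (ENSMUSG00000020908, chr11:66891802-66915793) had the most called binding of the 9 genes. Within 50 kb of its body lay 3 intervals in Myogenin Ctl, 4 in Myogenin Bex, 1 in p300 Ctl and 1 in p300 Bex. Of its myogenin regions, 3 were called in both conditions, and no other of the 9 genes had more than 1. Across all protein-coding genes, 7.51% had at least 3 intervals in Myogenin Ctl, 4.21% had at least 4 in Myogenin Bex and 1.93% had at least 3 shared myogenin regions. These minimums were set from the values of Myh3 itself, so the shares describe how common such counts were and test nothing.

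At the Myh3 start, the Myogenin Ctl interval ran from 66891058 to 66891229 (172 bp) with its center 658 bp upstream of the start, and the Myogenin Bex interval ran from 66891105 to 66891357 (253 bp) with its center 571 bp upstream. The pair overlapped by 125 bp and their centers lay 87 bp apart. The stretch in common holds both CAGCTG E-boxes of the sequence, at 66891118 and 66891170, together with a TGTGGT match, the Runx consensus, at 66891154. TGTGGT occurred within 100 bp of the center in 25.6% of all Myogenin Ctl intervals and in 29.6% of all Myogenin Bex intervals. The Ctl interval had the smallest length its list allows, which 54.8% of that list shared. Without intervals of that length the Myh3 start was called in Myogenin Bex alone, and Myh3 kept 2 shared regions, both past its end.

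p300 was not called on the myogenin site at the Myh3 start in either condition. The p300 Ctl interval next to it ran from 66890358 to 66890562 (205 bp), with its center 1342 bp upstream of Myh3 and a gap of 495 bp to the Myogenin Ctl interval. It was a Ctl-only call and held no muscle E-box, while TGACTCA, the consensus of AP-1 factors, stood at 66890509. TGACTCA or TGAGTCA occurred within 100 bp of the center in 27.8% of all p300 Ctl intervals. In p300 Bex the nearest interval to the Myogenin Bex site at the start was 28012 bp away. A further Myogenin Bex interval at chr11:66888584-66888751 (168 bp, the smallest length of its list) lay 3.13 kb upstream of Myh3 with 1 CACCTG at 66888722, and no Myogenin Ctl interval overlapped it.

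Past its 3′ end, Myh3 was followed by a pair of myogenin regions that were called in both conditions. In the nearer region the Myogenin Ctl interval ran from 66919200 to 66919555 (356 bp) and the Myogenin Bex interval from 66919286 to 66919545 (260 bp), so that the Bex interval lay inside the Ctl interval and their centers were 38 bp apart. The Ctl center lay 3.58 kb past the end of Myh3 and the Bex center 3.62 kb. Both intervals hold the 3 CAGCTG E-boxes marked in the sequence, at 66919328, 66919376 and 66919486. In the farther region the Myogenin Ctl interval ran from 66920542 to 66920760 (219 bp) and the Myogenin Bex interval from 66920559 to 66920778 (220 bp), with 202 bp in common and centers 18 bp apart, the closest pair of centers among the shared myogenin regions at these genes. It holds CAGCTG at 66920659 and CAGGTG at 66920702.

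The farther region also holds a CArG box, the element bound by serum response factor, from 66920667 to 66920676, close behind the CAGCTG that ends at 66920664. A CArG box was found within 100 bp of the center in 0.897% of all Myogenin Ctl intervals and in 0.979% of all Myogenin Bex intervals. A letter match in a sequence of this length is a description and not a measured site of the factor. Both regions also neighbor the noncoding gene 2310065F04Rik on the opposite strand, whose 3′ end lay 6.58 kb from the Ctl center of the nearer region and 5.31 kb from that of the farther one.

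p300 differed between the conditions in the region nearer to Myh3, as far as calls can show. p300 Bex had an interval of 158 bp from 66919370 to 66919527 wholly inside the shared myogenin region, with 2 of the 3 E-boxes. p300 Ctl had no interval there, and the nearest one to the Myogenin Ctl interval was 28637 bp away. The p300 Bex interval was Bex-only, as were 7.76% of all p300 regions. It had the smallest length of its list, which 48.9% of that list shared, so it stood at the narrow end of what was called. Without intervals of that length no p300 call was left there. The map of the cluster shows a p300 call past the Myh3 end in Bex and none there in Ctl, while myogenin was called in both. Its ticks are too wide to separate the nearer from the farther region. The view drawn to scale places the p300 Bex interval in the nearer one.

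**Figure D1:**
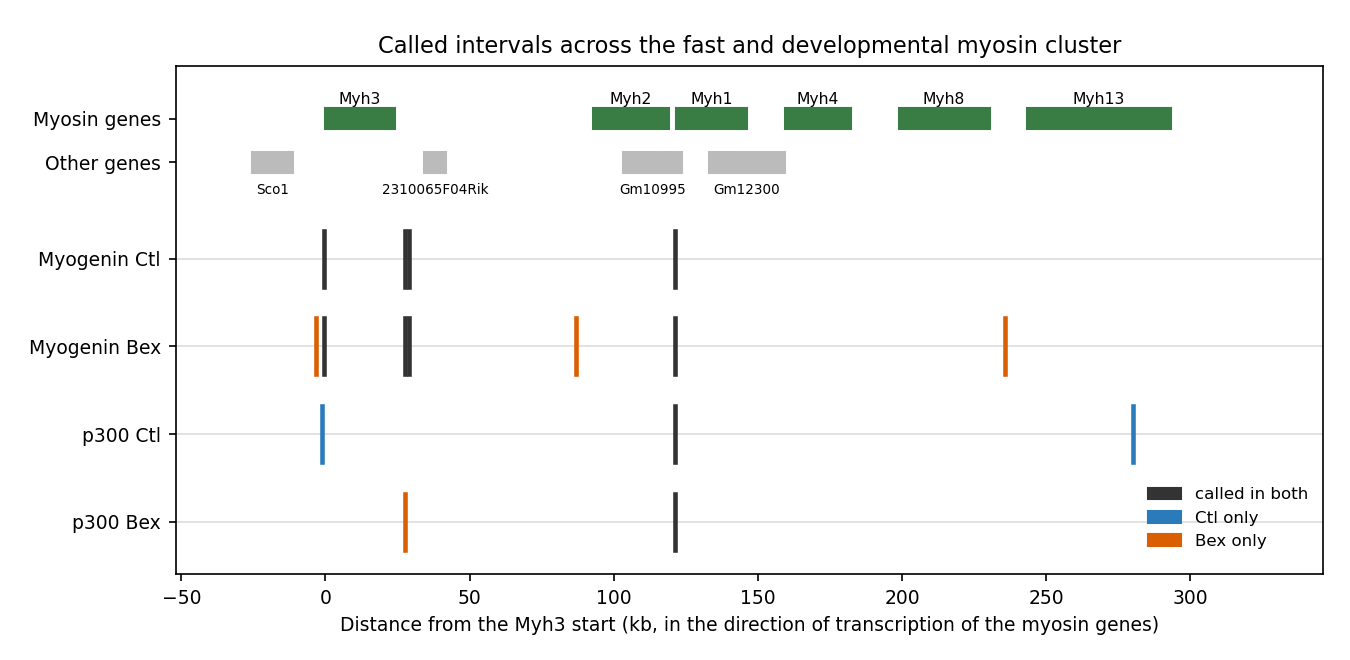
Positions of the called intervals in the 4 peak lists (lines of ticks, named on the vertical axis) over the fast and developmental cluster, as distance from the Myh3 start in kb, with the myosin genes in green and other genes in gray; ticks are drawn wider than the intervals. Myogenin ticks called in both conditions (black) stand at the Myh3 start, past its end and at the Myh1 start, Bex-only ticks (orange) stand at 3 further places in the Myogenin Bex line, and Myh4 has no tick within 38.0 kb of its start.

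Among the adult fast genes, Myh1 was the one with called binding at its start. Myh1 (ENSMUSG00000056328, chr11:67013554-67038078) had 1 interval within 1 kb of its start in every one of the 4 lists, and no other of the 9 genes had a p300 interval there. Of all genes 6.05% were called there in Myogenin Ctl, 3.73% in Myogenin Bex, 10.6% in p300 Ctl and 5.23% in p300 Bex. For p300 the count of 1 of 9 genes is near these shares. The share called there in all 4 lists together was not computed. Outside the 9 genes, Myl6, Mylk3, Chrna1 and Chrng, which are counted below, also had a call there in all 4 lists. At Myh1 the Myogenin Ctl interval ran from 67013085 to 67013303 (219 bp, center 360 bp upstream) and the Myogenin Bex interval from 67013078 to 67013245 (168 bp, center 392 bp upstream). The p300 Ctl interval ran from 67012946 to 67013158 (213 bp, center 502 bp upstream) and the p300 Bex interval from 67012994 to 67013151 (158 bp, center 481 bp upstream). Both Bex intervals had the smallest length of their lists, and without intervals of that length Myh1 was called at its start in the Ctl lists alone. In each condition the myogenin and p300 intervals overlapped by 74 bp, and the p300 center was the farther from the gene. Centers of the same factor moved by 32 bp for myogenin and by 21 bp for p300 between the conditions. In annotation all 4 intervals lay in intron 1 of Gm10995, a gene model on the opposite strand.

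The letters at the Myh1 start differ from those at the Myh3 sites. A MEF2 site, TTAAAATTAA at 67013097 to 67013106, lay inside the intervals of all 4 lists. MEF2 sites occurred within 100 bp of the center in 3.05% of Myogenin Ctl, 3.3% of Myogenin Bex, 2.88% of p300 Ctl and 2.86% of p300 Bex intervals, and at these genes the Myh1 start was where they were found. A CAGCTG E-box stood in both p300 intervals at 67013059, outside both myogenin intervals. Another CAGCTG stood at 67013246, inside the Myogenin Ctl interval, while the Myogenin Bex interval ended at the base before it and so held no muscle E-box. TGAGTCA stood in both p300 intervals at 67013025. AGGTCA, a half-site of nuclear receptors, began at 67012993, within the p300 Ctl interval and 1 base ahead of the first base of the p300 Bex interval. AGGTCA occurred within 100 bp of the center in 10.8% of all p300 Ctl intervals and 11.3% of all p300 Bex intervals.

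**Figure D2:**
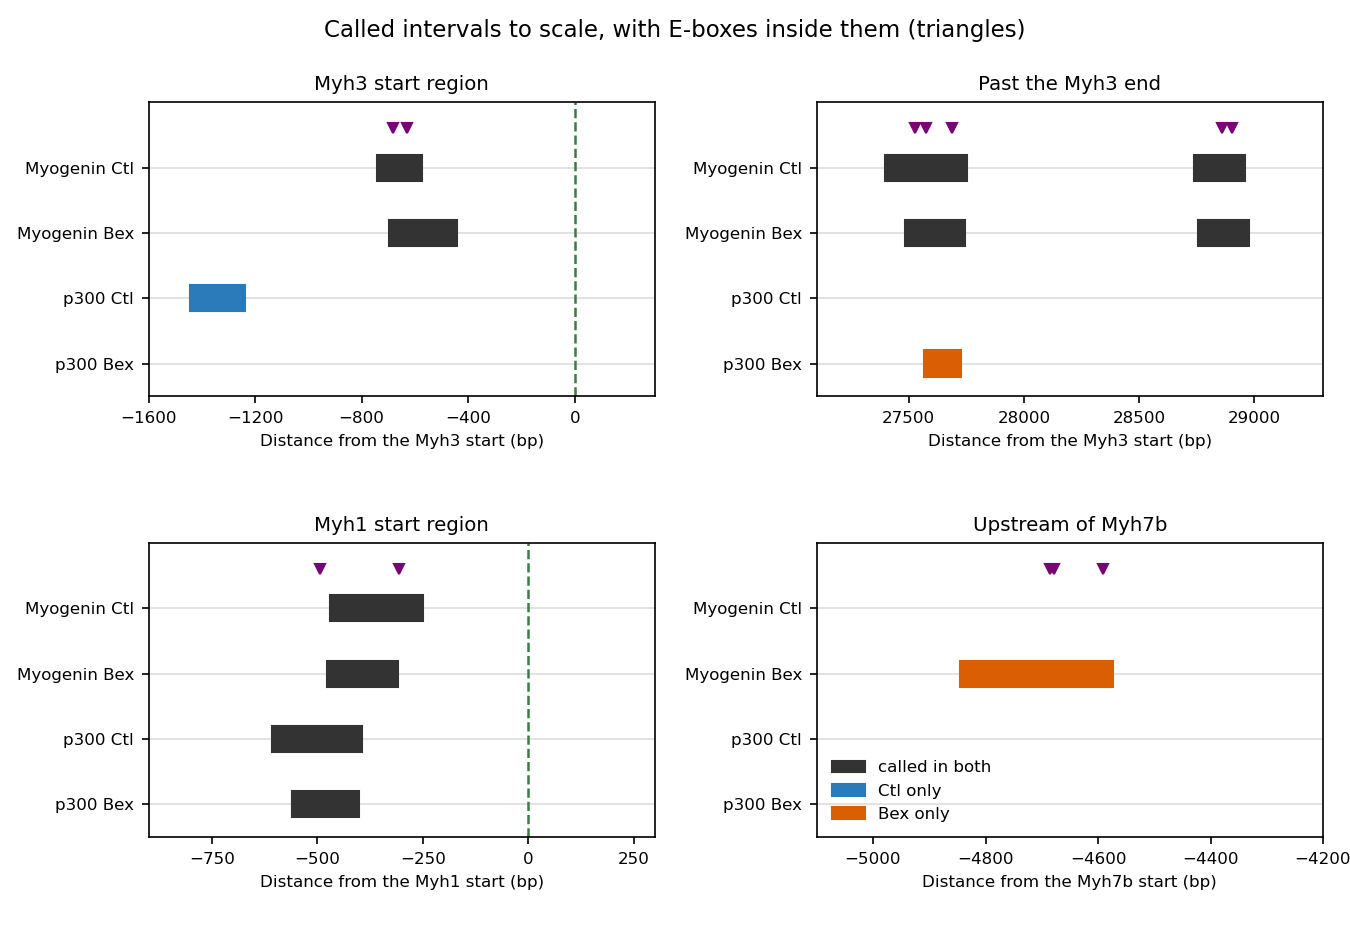
Called intervals (bars to scale) in 4 regions, each as distance in bp from the start of the gene named under the panel (dashed line where the start is in view), with triangles at the muscle E-boxes (CAGCTG or CACCTG on either strand) inside any interval. At the Myh1 start the myogenin and p300 bars overlap in both conditions, past the Myh3 end a p300 bar is drawn for Bex alone, and upstream of Myh7b there is a Myogenin Bex bar alone.

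The other adult fast genes had called intervals at a distance only. The nearest interval to the start of Myh2 (ENSMUSG00000033196, chr11:66984529-67011019) was 28.6 kb away in Myogenin Ctl, 5.73 kb in Myogenin Bex, 28.4 kb in p300 Ctl and 28.5 kb in p300 Bex. All but the Myogenin Bex value are distances to the intervals at the Myh1 start, past the other end of Myh2. The Myogenin Bex interval upstream of Myh2 ran from 66978522 to 66978802 (281 bp), was Bex-only and held 1 CAGGTG at 66978525, 134 bp from its center, and AGGTCA at 66978655. AGGTCA occurred within 100 bp of the center in 13.5% of all Myogenin Bex intervals. For Myh4 (ENSMUSG00000057003, chr11:67051314-67073948) the 4 distances were 38.0, 38.1, 38.2 and 38.2 kb in the same order of lists. These again lead to the Myh1 start, so that Myh4 had no interval of its own in any list.

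The perinatal gene Myh8 (ENSMUSG00000055775, chr11:67090626-67122136) had no Myogenin Ctl interval and no p300 Bex interval within 50 kb, and its 1 p300 Ctl interval lay 49509 bp away inside Myh13. Its 1 Myogenin Bex interval, from 67127283 to 67127509 (227 bp), lay 5146 bp past its end and 7.76 kb, from center to start, upstream of Myh13. The region was Bex-only, holds 2 CAGCTG E-boxes at 67127346 and 67127417 and had no p300 Bex interval within 114131 bp. Myh13 (ENSMUSG00000060180, chr11:67135160-67185088) had the same Myogenin Bex interval in its window. It also had the single interval of all 19 that lay in the body of a heavy chain gene, a Ctl-only p300 interval from 67171646 to 67171850 (205 bp) over exons 27 and 28 of the 40 exons of transcript Myh13-001. That interval held no muscle E-box.

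Of the cardiac pair, Myh6 (ENSMUSG00000040752, chr14:55560758-55585764) and Myh7 (ENSMUSG00000053093, chr14:55589525-55613471), neither had an interval at its start or in its body. The Myogenin Ctl interval assigned to Myh6 ran from 55513168 to 55513339 (172 bp), lay 47418 bp from the gene and covered part of exon 1 of Pabpn1, a nuclear poly(A)-binding protein gene. It held no CANNTG at all and was 77.3% G or C, the highest value among the 19 intervals, and no Myogenin Bex interval overlapped it. The p300 Ctl interval assigned to both genes ran from 55633848 to 55634006 (159 bp), 20376 bp upstream of Myh7, with its center 364 bp upstream of the start of Ngdn. It was Ctl-only and likewise had no muscle E-box. The nearest Myogenin Bex interval to the starts of Myh6 and Myh7 was 228 kb and 200 kb away.

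Myh7b (ENSMUSG00000074652, chr2:155436948-155460043) had a Myogenin Bex interval and no interval in the other 3 lists within 50 kb. The interval ran from 155432102 to 155432373 (272 bp), with its center 4.71 kb upstream of the start and in no annotated gene. It holds 3 E-boxes, CAGCTG at 155432261, CACCTG at 155432268 and CAGCTG at 155432355. The nearest Myogenin Ctl interval to the start of Myh7b was 229 kb away, and the nearest p300 Bex interval to the myogenin interval was 81680 bp away.

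Each member is a gene with a window that can overlap those of its neighbors, so 1 interval can be counted for several genes. With that sharing, 5 of the 9 genes had a Myogenin Ctl interval within 50 kb, where 32.3% of all protein-coding genes had one, and 7 of 9 had a Myogenin Bex interval, where 32.9% had one. For p300 Ctl the count was 8 of 9 against 53.8% of all genes, and for p300 Bex it was 4 of 9 against 35.2%. The 8 genes rest on 4 p300 Ctl intervals, of which those counted for Myh8 and Myh6 lay 49509 and 48083 bp away. In Myogenin Ctl, Myh2, Myh1 and Myh4 all rest on the 1 interval at the Myh1 start, and Myh6 rests on the interval at Pabpn1, 47418 bp away. In Myogenin Bex, Myh4 rests on the interval at the Myh1 start, and Myh8 and Myh13 share 1 interval. The 4 genes with a p300 Bex interval were Myh3, Myh2, Myh1 and Myh4. Within 10 kb the counts were 3 for Myogenin Ctl, 6 for Myogenin Bex, 4 for p300 Ctl and 3 for p300 Bex, beside 17.5%, 17.6%, 31.3% and 18.2% of all genes. The median length of the members was 24.5 kb and that of all protein-coding genes 15.4 kb, which makes the members' windows somewhat the wider. In the gene body the counts were 0, 0, 1 and 0 of 9 genes in the order Myogenin Ctl, Myogenin Bex, p300 Ctl and p300 Bex, beside 10.1%, 10.3%, 20.4% and 11.6% of all genes. Within 1 kb of a start the counts were 2, 2, 1 and 1, beside 6.05%, 3.73%, 10.6% and 5.23%.

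**Figure D3:**
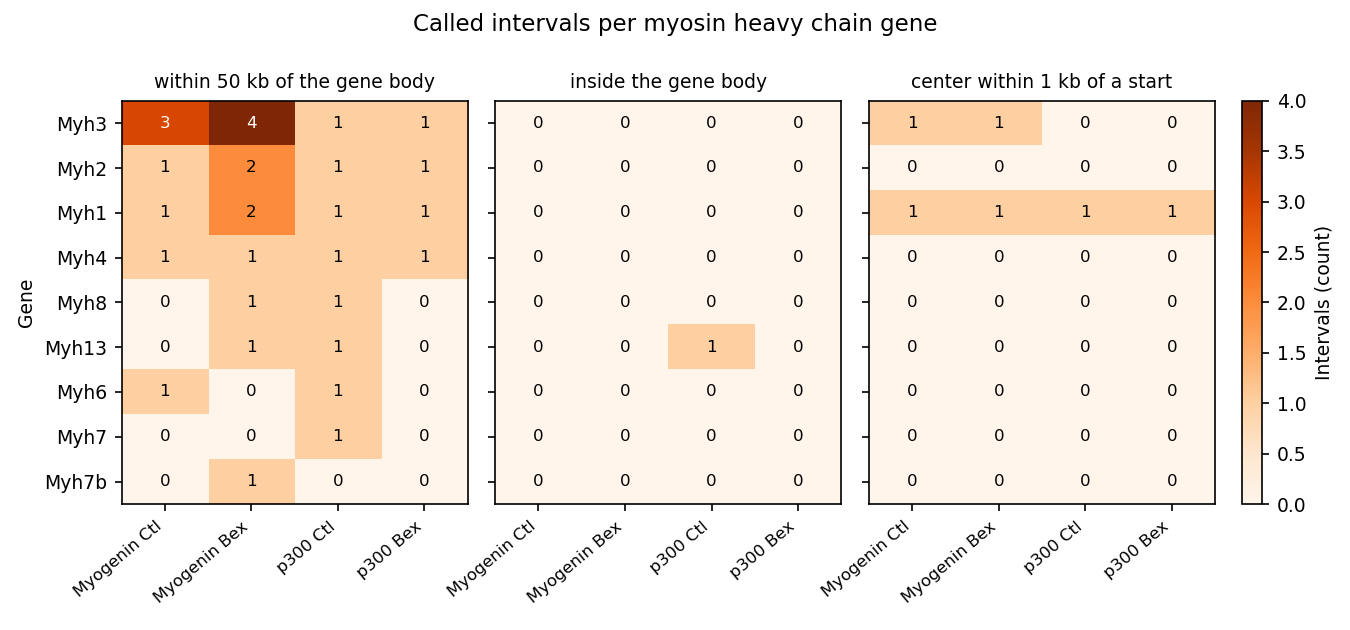
Number of called intervals for each of the 9 genes (vertical axis) in each peak list (horizontal axis), within 50 kb of the gene body, inside the gene body and with the center within 1 kb of a start; the color gives the same count as the printed digit. Myh3 has the highest counts for myogenin (3 and 4), Myh1 is the one of the 9 with a count in all 4 lists at its start, and 1 p300 Ctl interval lies inside Myh13. The share of all genes with a count in all 4 lists at the start was not computed.

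For density, each list was set against its own level near protein-coding genes. In both myogenin lists the chromosome 11 cluster stood above that level. Over the 393 kb window it held 10.2 Myogenin Ctl and 17.8 Myogenin Bex intervals per Mb, where the territory within 50 kb of any protein-coding gene held 3.13 and 3.45 per Mb. These values are 3.25-fold and 5.16-fold those of gene territory. For p300 the cluster held 7.63 intervals per Mb in Ctl and 5.09 in Bex, against 10.5 and 4.32 per Mb, or 0.729-fold and 1.18-fold. Over all 3 loci the ratio was 2.39 for Myogenin Ctl, 3.47 for Myogenin Bex, 0.571 for p300 Ctl and 0.692 for p300 Bex. The counts behind these densities are 8 intervals or fewer in each list, and their spread between cultures is unknown.

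Regions were formed by joining intervals of the same factor with 1 bp or more in common, and were sorted into classes. Of the 9 myogenin regions at the heavy chain genes, 1 was Ctl-only (11.1%, 95% Wilson interval 1.99 to 43.5%), 4 were shared (44.4%, 18.9 to 73.3%) and 4 were Bex-only (44.4%, 18.9 to 73.3%). Over all 9553 myogenin regions the shares were 30.6%, 31.3% and 38.2%, each inside the interval of its class at these genes. Of the 5 p300 regions, 3 were Ctl-only (60.0%, 23.1 to 88.2%), 1 was shared (20%, 3.62 to 62.4%) and 1 was Bex-only (20%, 3.62 to 62.4%). Over all 23903 p300 regions they were 62.1%, 30.1% and 7.76%. The Wilson intervals cover counting error over regions and not the variation between cultures. Without intervals of the smallest length the myogenin counts were 1 Ctl-only, 2 shared and 4 Bex-only. Those of p300 were then 3 Ctl-only, 0 shared and 0 Bex-only. Equal counts here do not stand for the same regions. For myogenin the Myh1 start replaced the Pabpn1 site as Ctl-only, and the Myh3 start replaced the site farther upstream of Myh3 among the Bex-only regions. For p300 the Myh1 start replaced the Ngdn site among the Ctl-only regions. By gene, a Ctl-only myogenin region lay within 50 kb of 1 of the 9 genes (23.0% of all protein-coding genes), a shared one of 4 (17.5%) and a Bex-only one of 6 (25.1%). For p300 these counts were 5 genes Ctl-only (47.5%), 3 shared (27.7%) and 1 Bex-only (14.3%).

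Of the 4 shared myogenin regions, 3 lay around Myh3 and 1 at the Myh1 start. The centers of the 4 Bex-only regions lay 3.13 kb upstream of Myh3, 5.87 kb upstream of Myh2, 7.76 kb upstream of Myh13 (nearer to the end of Myh8) and 4.71 kb upstream of Myh7b. The first of these stands beside the shared sites of Myh3, and the second is also in the window of Myh1. None of these 4 overlapped a p300 Bex interval, and the gap to the nearest was 30618, 34191, 114131 and 81680 bp in that order. The share of all Bex-only myogenin regions that overlapped p300 Bex was not computed. Of all Myogenin Bex intervals 25.6% overlapped it, so an absence at 4 sites does not set them apart. In all, p300 of the same condition overlapped 1 of the 5 Myogenin Ctl intervals (20%, 3.62 to 62.4%), where 33.0% of the whole list did, and 2 of the 8 Myogenin Bex intervals (25%, 7.15 to 59.1%), where 25.6% did. The Myogenin Ctl share was 40% with p300 within 1 kb or from either list. Both p300 Bex intervals behind the Myogenin Bex share had the smallest length of their list.

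A muscle E-box was found no more than 50 bp from the center in 3 of the 5 Myogenin Ctl intervals (60.0%, 23.1 to 88.2%) and in 4 of the 8 Myogenin Bex intervals (50.0%, 21.5 to 78.5%). All motifs were read on both strands. The whole lists had 47.7% and 60.3%. For p300 the counts were 1 of 4 intervals in Ctl (whole list 19.6%) and 2 of 2 in Bex (whole list 25.2%), at the Myh1 start in both conditions and past the Myh3 end in Bex. Within 100 bp of the center the shares were 4 of 5 (80.0%, whole list 64.6%) and 7 of 8 (87.5%, whole list 76.4%). The interval without one in that window was that at Pabpn1 in Myogenin Ctl and that upstream of Myh2 in Myogenin Bex, whose CAGGTG stands 134 bp from the center. Within its own bounds, the Myogenin Bex interval at the Myh1 start was the one of the 8 without a muscle E-box. For the whole list this share was not computed. GGAATG, the consensus of Tead factors, was found within 100 bp in 4 of the 8 Myogenin Bex intervals (50.0%, 21.5 to 78.5%), where the whole list had 19.1%, and in 1 of the 5 Myogenin Ctl intervals (20%, 3.62 to 62.4%), where it had 16.7%. The 4 were the Bex-only sites upstream of Myh3, of Myh13 and of Myh7b and the farther shared site past the Myh3 end. GGAATG was 1 of 7 motif kinds counted beside the E-boxes, and none of the differences was tested.

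E-boxes in the promoter sequence were found both at genes called at their start and at genes that were not. A relation between the 2 was not tested. In the 1 kb upstream of the annotated start, muscle E-boxes occurred 3 times at Myh3 and 3 times at Myh1, and also 4 times at Myh6, 2 times at each of Myh4, Myh13, Myh7 and Myh7b, 1 time at Myh2 and not at Myh8. Of all protein-coding genes 68.3% had at least 1 in that window. CAGCTG occurred 3 times at Myh3, 2 times at Myh1 and at Myh4, 1 time at Myh13, Myh6 and Myh7 and not at Myh2, Myh8 and Myh7b, with at least 1 in 35.6% of all genes. MEF2 sites occurred 2 times at Myh1 and 1 time at Myh4, Myh8 and Myh7b, with at least 1 in 14.7% of all genes. The promoters of the RefSeq table, which reach from 250 bases before to 50 bases after a gene start, were placed in mm9 by their sequence for all 9 genes, and no interval of any list overlapped one of them. The share of all RefSeq promoters overlapped was not computed, and within 1 kb of a start no list had an interval at more than 10.6% of all genes. The Myh1 promoter was 50 bp from the Myogenin Ctl interval and 108 bp from the Myogenin Bex interval, and the Myh3 promoter was 322 and 194 bp from theirs. For Myh13 the RefSeq promoter lay within the GENCODE gene, and the Myogenin Bex interval upstream was 12845 bp from it.

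Some exon sequence of most of the heavy chain genes occurs more than once in the genome, so that 50-base reads from it match several places. The share of 50-base stretches found once in mm9 was lowest in the exons of Myh1 (78.8%), Myh2 (80.0%) and Myh6 (80.6%) and reached 100% in those of Myh7b, with a median of 85.5% over the 9 genes. In introns it was 95.4 to 99.7%, and in the 1 kb upstream of the start 92.2 to 100%. In all 19 intervals it was 100%, so that exact reads from the called intervals match mm9 in 1 place. Missing calls inside exons rest on sequence of which a part is not unique, and the part this plays in the missing calls was not tested. The best match between a chromosome 11 myogenin interval and the 2 kb upstream of another heavy chain gene was 39 identical bases of 45 aligned, between the Myogenin Bex interval at the Myh3 start and Myh8.

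**Figure D4:**
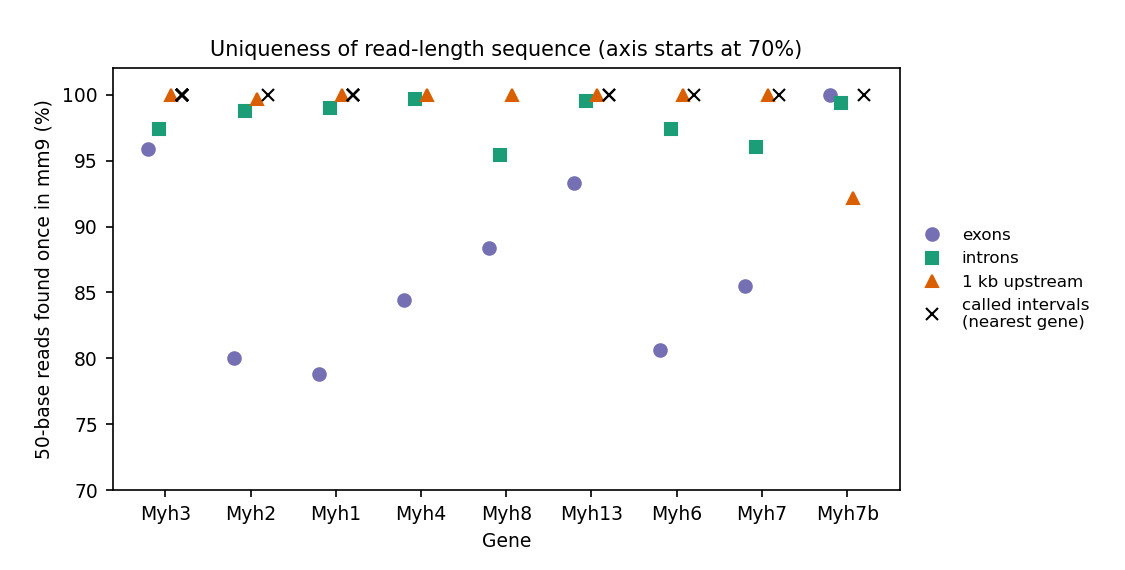
Percentage of 50-base stretches that occur once in mm9 (vertical axis, which starts at 70%) for the exons, introns, 1 kb upstream and called intervals of each gene (horizontal axis; intervals are drawn at the nearest heavy chain gene). Exon values spread from 78.8% at Myh1 to 100% at Myh7b, and all interval values lie at 100%.

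Other genes of the myosin machinery were counted from fixed lists, beside 32.3%, 32.9%, 53.8% and 35.2% of all protein-coding genes within 50 kb in the order Myogenin Ctl, Myogenin Bex, p300 Ctl and p300 Bex. Of the 5 nonmuscle, smooth muscle and other heavy chain genes (Myh9, Myh10, Myh11, Myh14 and Myh15), 2 had a Myogenin Ctl interval within 50 kb, 4 a Myogenin Bex interval, 2 a p300 Ctl interval and 2 a p300 Bex interval. Myh9, which encodes the nonmuscle IIA chain, had 8, 8, 16 and 8 intervals in the 4 lists, more in every list than any striated gene. Of the 11 light chain genes that were matched, 7, 9, 10 and 4 had one. Among them Myl1, the fast alkali light chain, had 2 Myogenin Ctl and 6 Myogenin Bex intervals and no p300 interval, and Myl4, the embryonic and atrial light chain, had 2 and 2 myogenin and 7 and 1 p300 intervals. Of 6 myosin chaperones and kinases, 5, 6, 4 and 2 had one, and Unc45b, a myosin chaperone of striated muscle, had 2 and 1 myogenin intervals and no p300 interval. The p300 Bex counts of all 3 lists were near the share of all genes. Within 1 kb of a start, where all genes had 6.05%, 3.73%, 10.6% and 5.23%, the counts in the order of the lists were 1, 1, 1 and 1 of 5 for the heavy chains, 3, 3, 2 and 1 of 11 for the light chains and 3, 2, 2 and 1 of 6 for the chaperones and kinases. With groups of this size and genes that share intervals, such as Myl6 and Myl6b, these counts are a description and were not compared by a test.

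**Figure D5:**
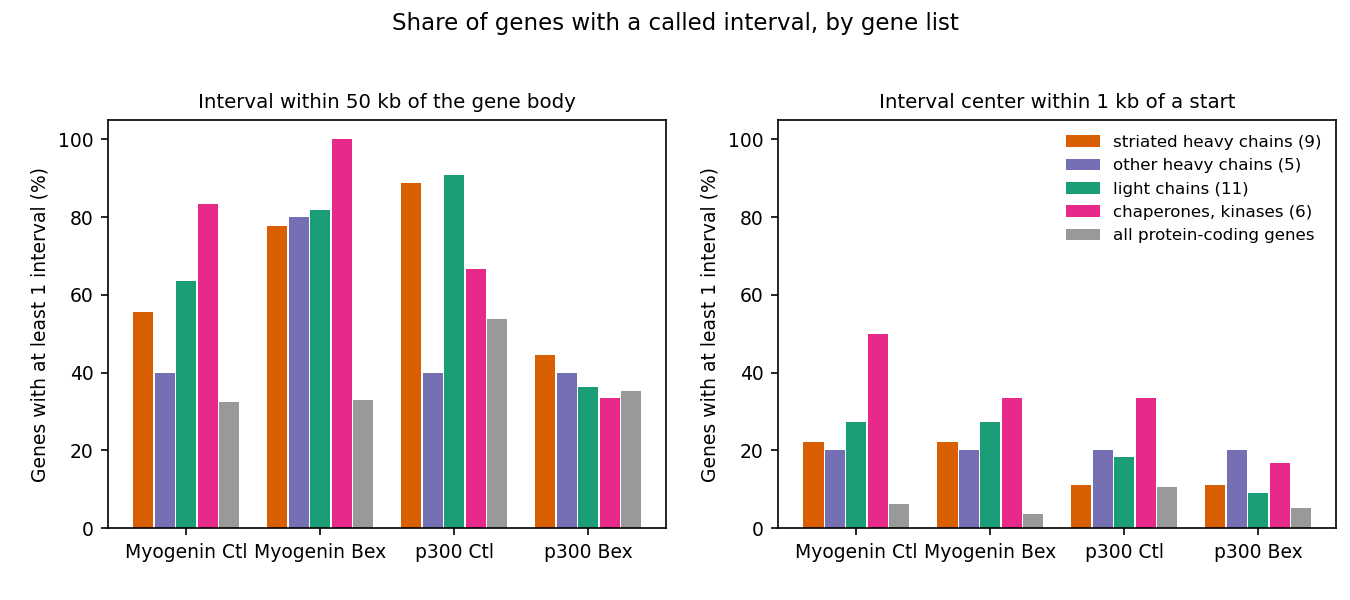
Percentage of genes with at least 1 interval in each peak list, within 50 kb of the gene body (left) and with the center within 1 kb of a start (right), for the 9 striated heavy chain genes, 3 other lists and all protein-coding genes (number of genes in parentheses; bars without error because each list is a single library). In Myogenin Bex within 50 kb the bar of the striated heavy chains stands for 7 of 9 genes, beside 32.9% of all genes, and the bars of the 3 other lists also stand above that of all genes.

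The muscle identity of the chromatin was checked against markers. An interval within 1 kb of a start was found at 3 of 9 muscle differentiation genes in each of the 4 lists (Chrna1, Chrng and Myl4 for myogenin, Des, Chrna1 and Chrng for p300) and at 0 of 8 markers of liver, neural, blood and fat cells in any list. With 6.05%, 3.73%, 10.6% and 5.23% of all genes called in this way, a count of 0 of 8 is near the background. Within 50 kb, 8, 7, 8 and 8 of the 9 muscle genes and 1, 2, 3 and 2 of the 8 other markers had an interval, beside 32.3%, 32.9%, 53.8% and 35.2% of all genes, with Cidec, a fat cell gene, called in every list and Adipoq holding 4 p300 Ctl intervals. Ckm, the muscle creatine kinase gene, had no interval within 50 kb in any list.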

How the data were processed

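Myogenin and p300 were profiled by ChIP-seq with 50 bp single-end reads in C2C12 cells, with 1 library per factor and condition. The authors aligned the p300 reads with Bowtie and the myogenin reads with BWA-MEM to mm9, discarded duplicate reads (Picard) and ran the HOMER peak caller in its factor style, library by library. The 4 deposited lists hold positions of called peaks, counted from 0 and printed here counted from 1, with no tag count, score or input value, so the depth is unknown from them. For myogenin they hold 5912 intervals in Ctl and 6642 in Bex, for p300 22051 and 9154. Factors differ in aligner and are not compared in number.

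Inputs and H3K27me3 libraries were not used here. Genes and starts came from GENCODE of the same build and sequence from mm9; RefSeq promoters (GRCm38.p6) were placed in mm9 by exact sequence. A heavy chain gene was counted where an interval lay within 50 kb, in the body, or with its center within 1 kb of a start. Sequences were chosen among intervals of at most 300 bp that lay within 1 kb of a member's start, were called for both factors or were the only one of their class at a locus. Not every such interval is printed: overlapping intervals of the same site and those at the starts of neighboring genes were left out, and 1 site outside the rule was added. All members were described. The members and lists were chosen with earlier results of these data known. Of 12 light chain genes listed, Myl12a had no match. Alternatives changed the flank, the overlap rule, the smallest interval, the E-box and its window, and the p300 list. Functions were tested on simulated data. Python 3.11.15, numpy 2.4.6, pandas 2.3.3, scipy 1.17.1, pysam 0.24.0, samtools 1.23.1, numba 0.67.0, Biopython 1.88 and matplotlib 3.10.9 were used.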

Additional observations from a re-analysis of the deposited data

How the results depend on the processing

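Of 88 values recomputed for 30 results, 20 moved and 68 did not, where moved means a count that changed by over 1.5 times, or to or from 0, or a share outside the 95% Wilson interval of the reported one. These intervals are wide: the Myogenin Ctl overlap with p300 was 40% in place of 20% with p300 within 1 kb or from either list, inside its interval. Leaving out intervals of the smallest length took Myogenin Ctl from 5 to 3 intervals, p300 Bex from 2 to 0, shared myogenin regions from 4 to 2, and shared and Bex-only p300 regions from 1 to 0 each, since both p300 Bex intervals have that length. A flank of 100 kb gave 7 p300 Ctl intervals in place of 4, 5 Ctl-only p300 regions in place of 3 and 2 shared ones in place of 1. A reciprocal overlap of 50% gave 2 Ctl-only myogenin regions and a flank of 10 kb gave 0, in place of 1. With 10 kb the genes with a Myogenin Ctl interval were 3 in place of 5 and those with p300 Ctl 4 in place of 8 (17.5% and 31.3% of all genes), the other heavy chains with Myogenin Ctl 1 in place of 2 and the light chains with p300 Ctl 6 in place of 10. In the gene body alone the counts were 0, 0, 1 and 0 of 9 genes. The E-box share of Myogenin Bex intervals was 87.5% within 100 bp of the center and over the whole interval, in place of 50.0%. The authors' peak threshold is fixed in the lists. No paired analysis was possible because each condition is 1 library, and for the same reason no library could be left out.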
